A study of Mus musculus with 8 samples.

Results

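The 9 genes described here are Col1a1, Col1a2, Col3a1, Dcn, Lum, Ogn, Aldh1a2, Igfbp2 and Ptgds, which serve as markers of vascular leptomeningeal fibroblasts, and they were taken by gene symbol from the 24343 genes of a whole-brain RNA table. RNA of the whole brain was sequenced from 3 mice of the strain C57BL/6NCrl, 56 to 62 days of age, that carried no transgene or treatment named in the labels. Mouse 1 and mouse 2 each gave 3 libraries and mouse 3 gave 2, and neither the sex of the mice nor what separates the libraries of a mouse is stated. All mice belong to a single condition, so the comparisons below set individual mice against each other and not treatments. Libraries of the same mouse may be technical repeats, and p-values then measure only the spread between these libraries.

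Vascular leptomeningeal fibroblasts line the pia and the larger vessels that enter the brain. They build the collagen-rich sheet around the brain, secrete small proteoglycans that bind to collagen fibrils, make retinoic acid, and carry binding proteins and lipid-handling proteins of the cerebrospinal fluid. Several of these genes are also active outside these cells: Ptgds is known from oligodendrocytes and choroid plexus epithelium as well, and Igfbp2 from choroid plexus and astrocytes.

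The values are FPKM, the sequenced fragments of a transcript scaled to its length and to the size of the library, so that levels of genes of different length can be compared. A gene's level is the sum over its transcripts; the mean of each mouse's libraries was taken first, the mean ± SD of the 3 mouse means second, and every SD is therefore between mice (n = 3). The reads on transcripts came to between 1.31 and 2.02 gigabases per library (median 1.76), computed as deposited coverage multiplied by transcript length. How a gene's deviation from its own mean went with the length of its transcript differed by mouse, and Spearman's rho over the genes lay between 0.182 and 0.502 in the 6 libraries of mice 1 and 2, and at −0.363 and −0.574 in the libraries of mouse 3. Genes are not independent replicates, so these values describe the libraries only.

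For 6 of the 9 genes RefSeq gives the 250 bases before the transcript start (assembly GRCm38.p6), and 3 of these are printed: Col1a2 and Ptgds, for which a pair of mice differed past the threshold below, and Col3a1, a second collagen with both libraries of mouse 3 lowest. Each is written 5′ to 3′ on the strand of the gene, with the searched motifs in capitals. Col1a2 lies at chr6:4505368-4505617 on the plus strand, Col3a1 at chr1:45311288-45311537 on the plus strand and Ptgds at chr2:25469750-25469999 on the minus strand.
Col1a2: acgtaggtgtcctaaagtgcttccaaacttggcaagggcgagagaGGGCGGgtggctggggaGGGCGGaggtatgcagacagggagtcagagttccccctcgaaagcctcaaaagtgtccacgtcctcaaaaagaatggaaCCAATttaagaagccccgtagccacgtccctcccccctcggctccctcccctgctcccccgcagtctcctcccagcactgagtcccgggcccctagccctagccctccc
Col3a1: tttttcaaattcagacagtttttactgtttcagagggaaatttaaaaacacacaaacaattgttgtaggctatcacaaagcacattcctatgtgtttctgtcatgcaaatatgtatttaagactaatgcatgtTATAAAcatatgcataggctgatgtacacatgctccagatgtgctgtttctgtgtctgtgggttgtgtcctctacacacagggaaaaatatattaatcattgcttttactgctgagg
Ptgds: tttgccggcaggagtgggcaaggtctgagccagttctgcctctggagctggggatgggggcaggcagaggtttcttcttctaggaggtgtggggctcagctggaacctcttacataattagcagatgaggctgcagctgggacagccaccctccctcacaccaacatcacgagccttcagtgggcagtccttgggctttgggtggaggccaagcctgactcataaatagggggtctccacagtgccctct

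Both strands were searched for the CCAAT box, for the TATA box as TATAAA and for the GC box as GGGCGG, and none of these contains another. Of 32851 RefSeq promoters of the same length, 33.8% hold the CCAAT box, 12.4% the TATA box and 32.7% the GC box. The Col1a2 window precedes a RefSeq start that lies 79 bases upstream of the transcript start in the deposited table, and the distances given here count from the RefSeq start. It holds a CCAAT box at 109 bases and the GC box at 2 places, whereas the Col3a1 window holds a TATA box 117 bases before the start and the Ptgds window holds none of these letters. Aldh1a2 also has a CCAAT box, 36 bases before its start. In Ogn the TATA box letters occur at 2 overlapping places, and the first of 2 Igfbp2 starts has the GC box at 3 places. Each motif thus occurred in 2 of the 6 genes. The GC content of the printed windows was 62% for Col1a2, 35.2% for Col3a1 and 58.4% for Ptgds, against a median of 52.4% over all promoters. A match is a description of the sequence and not a bound site.

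All 9 genes were detected in each of the 8 libraries, and their levels covered a wide range. Ptgds, at 755 ± 159 FPKM, was 30.9-fold above the next gene and ranked 28 of 24343 genes. Igfbp2 followed at 24.5 ± 3.50 FPKM (rank 2753) and Dcn at 14.9 ± 1.53 FPKM (rank 4351). These 3 genes lay above the median level of the 13001 genes averaging 1 FPKM or more, which was 8.81 FPKM. The others were Col1a2, Ogn, Aldh1a2, Col1a1, Lum and Col3a1 in falling order, between 4.92 and 1.16 FPKM, and the 8 genes other than Ptgds summed to 57.7 FPKM. Neighbours in this order kept it in 8 of 8 libraries except for Col1a2 above Ogn (7 of 8 libraries and 2 of 3 mice, with means 1.09-fold apart) and Lum above Col3a1 (6 of 8 libraries, means 1.29-fold apart). The ranges over libraries did not overlap between Ptgds and Igfbp2, Dcn and Col1a2, or Aldh1a2 and Col1a1, and they overlapped between all other neighbours. In whole-brain RNA, fewer cells of a type and less RNA per cell cannot be told apart, and no value can be assigned to a cell type.

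**Figure D1:**
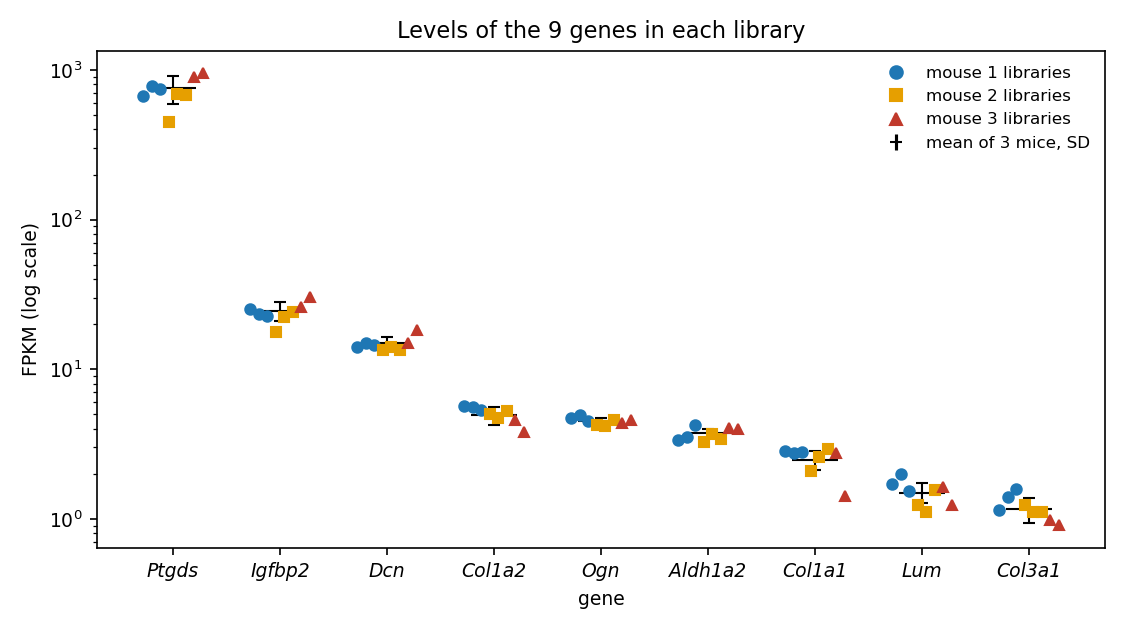
Levels of the 9 genes in FPKM (vertical axis, log scale) by gene, with a point for each library coloured by mouse and bars for the mean and SD of 3 mice. Ptgds stands at 755 FPKM, while the other genes lie between 1.16 and 24.5 FPKM.

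The fibrillar collagens come first. Col1a1 and Col1a2 encode the chains of type I collagen, the main tensile fibre of the meninges, and Col3a1 encodes type III collagen, which is laid down together with it. Col1a2 (chr6:4505697-4541543, plus strand, transcript NM_007743 of 5143 nucleotides) reached 4.92 ± 0.675 FPKM. In mouse 1 its libraries read 5.68, 5.62 and 5.37 FPKM, in mouse 2 they read 5.05, 4.71 and 5.22 FPKM, and in mouse 3 they read 4.603 and 3.82 FPKM. Every library of mouse 1 was above all others, and both libraries of mouse 3 were below all others.

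Col1a1 (chr11:94936270-94951856, plus strand, NM_007742, 4698 nucleotides) stood at 2.47 ± 0.361 FPKM. Its libraries gave 2.83, 2.76 and 2.81 FPKM in mouse 1, 2.07, 2.59 and 2.91 FPKM in mouse 2, and 2.75 and 1.42 FPKM in mouse 3. Library 2 of mouse 3 was the lowest and library 1 of that mouse fell within the range of mouse 2 and just under that of mouse 1. The deposited confidence bounds of the lowest library (1.12 to 1.72 FPKM) did not reach those of the highest (2.48 to 3.33 FPKM).

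Col3a1 (chr1:45311538-45349706, plus strand, NM_009930, 5564 nucleotides), the lowest of the 9 genes, was measured at 1.16 ± 0.218 FPKM. The values were 1.14, 1.41 and 1.59 FPKM in mouse 1, 1.24, 1.10 and 1.12 FPKM in mouse 2, and 0.980 and 0.906 FPKM in mouse 3. Both libraries of mouse 3 were again the lowest, and mice 1 and 2 overlapped. Estimated read depth per base was only 1.94 to 3.97 for this gene, so single libraries are imprecise here.

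Between the mice, the proportions among the collagens varied less than their levels, whose coefficients of variation were 14.6%, 13.7% and 18.8% for Col1a1, Col1a2 and Col3a1. The ratio of Col1a1 to Col1a2 was 0.498 ± 0.0118 over the mice, with single libraries between 0.372 and 0.598. Both of these extremes were libraries of mouse 3, whose mean was 0.485, so the small SD holds only for means of libraries. Col3a1 stood to Col1a2 as 0.235 ± 0.0125, with libraries between 0.201 and 0.296. These pairs were chosen after the values were seen, and no test was made on them.

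Dcn, Lum and Ogn encode decorin, lumican and osteoglycin, small leucine-rich proteoglycans that bind collagen and regulate the thickness of its fibrils. Dcn (chr10:97479500-97518162, plus strand) was the highest of them at 14.9 ± 1.53 FPKM. Its libraries read 13.97, 15.1 and 14.4 FPKM in mouse 1, 13.4, 14.2 and 13.4 FPKM in mouse 2, and 14.9 and 18.4 FPKM in mouse 3. Library 2 of mouse 3 exceeded every other library, while library 1 of that mouse lay within the range of mouse 1.

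Dcn is the only one of the 9 genes with more than 1 transcript in the table. NM_001190451 (1886 nucleotides) gave 11.8 ± 1.07 FPKM, or 78.9% ± 4.48 of the gene (SD between mice, n = 3). The shorter NM_007833 (1794 nucleotides), which starts further downstream at chr10:97482350, gave 3.16 ± 0.831 FPKM, or 21.1% ± 4.48. The share of NM_001190451 was 76.0%, 78.4% and 70.9% in mouse 1, 84.9%, 87.0% and 79.6% in mouse 2, and 76.9% and 78.7% in mouse 3. Mouse 2 had the highest share in each of its libraries, and mice 1 and 3 overlapped. Reads shared by both transcripts were divided by the authors' estimation, and the half-width of the deposited bounds of NM_007833 ran from 25.2% to 45.9% of its value, so the shares are less certain than the sum.

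**Figure D2:**
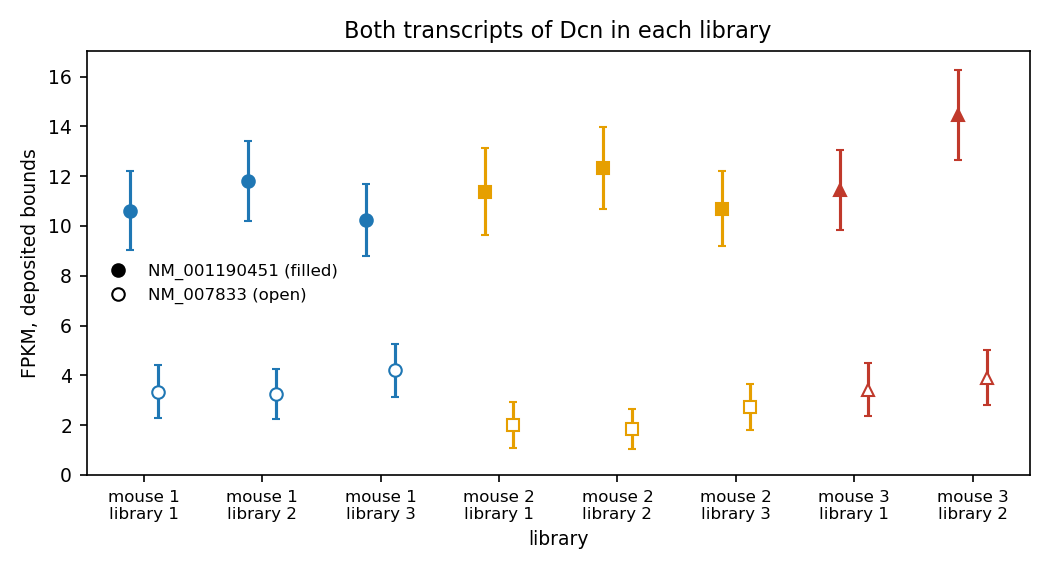
FPKM of the Dcn transcripts NM_001190451 (filled) and NM_007833 (open) in each of the 8 libraries, with bars for the deposited confidence bounds. NM_001190451 is the more abundant in every library, at 10.2 to 14.5 FPKM against 1.84 to 4.201 FPKM.

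Lum (chr10:97565501-97572703, plus strand, NM_008524, 2075 nucleotides) was near the bottom at 1.496 ± 0.229 FPKM. The libraries gave 1.70, 2.01 and 1.54 FPKM in mouse 1, 1.24, 1.11 and 1.56 FPKM in mouse 2, and 1.64 and 1.23 FPKM in mouse 3. No mouse stood apart, and the bounds of the lowest and the highest library overlapped. The half-width of the deposited bounds ran from 27.3% to 39.4% of the value, so single libraries are imprecise for Lum too.

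Ogn (chr13:49608071-49624500, plus strand, NM_008760, 2540 nucleotides) varied least between the mice, at 4.51 ± 0.203 FPKM (coefficient of variation 4.51%, against a median of 12.3% over the 13001 genes). Mouse 1 gave 4.69, 4.98 and 4.51 FPKM, mouse 2 gave 4.21, 4.198 and 4.55 FPKM, and mouse 3 gave 4.37 and 4.59 FPKM. All mice overlapped. To Dcn, Lum stood as 0.102 ± 0.0168 and Ogn as 0.305 ± 0.0290.

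Dcn and Lum are neighbours on chromosome 10, 47337 bases apart by RefSeq, and the next genes along are Kera and Epyc, which encode the related proteins keratocan and epiphycan. Kera was listed at 0 in 7 of 8 libraries, with a mean of 0.00483 FPKM, and Epyc reached 0.258 FPKM. Ogn closes a cluster of related genes on chromosome 13 with Ecm2, Aspn and Omd, the last being 15402 bases from Ogn. Omd (osteomodulin) was measured at 2.87 ± 0.610 FPKM, Ecm2 at 1.93 FPKM and Aspn (asporin) at 0.535 FPKM, so Ogn was the highest of its cluster and Dcn of the other. The level of these neighbours was read after the 9 genes had been chosen.

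The 3 remaining genes encode secreted or metabolic proteins. Aldh1a2 encodes retinal dehydrogenase 2, which makes retinoic acid from retinal. At chr9:71215789-71296243 (plus strand, NM_009022, 2264 nucleotides) it gave 3.73 ± 0.277 FPKM. Its libraries read 3.38, 3.54 and 4.25 FPKM in mouse 1, 3.28, 3.69 and 3.39 FPKM in mouse 2, and 4.02 and 3.996 FPKM in mouse 3. Mouse 3 lay above mouse 2, and mouse 1 overlapped both.

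Igfbp2 encodes a secreted protein that binds insulin-like growth factors. At chr1:72824480-72852471 (plus strand, NM_008342, 1327 nucleotides) it stood at 24.5 ± 3.50 FPKM. The libraries gave 25.1, 23.5 and 22.6 FPKM in mouse 1, 17.8, 22.3 and 24.1 FPKM in mouse 2, and 26.1 and 30.4 FPKM in mouse 3. Both libraries of mouse 3 were above all others, and library 1 of mouse 2 was the lowest.

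Ptgds encodes lipocalin-type prostaglandin D synthase, an abundant protein of the cerebrospinal fluid that converts prostaglandin H2 to prostaglandin D2 and carries lipids. It lies at chr2:25466712-25469749 on the minus strand (NM_008963, 805 nucleotides, the shortest of the 9). Its libraries read 671, 781 and 747 FPKM in mouse 1, 448, 694 and 683 FPKM in mouse 2, and 898 and 949 FPKM in mouse 3. Both libraries of mouse 3 were the highest, and library 1 of mouse 2 was far below the rest. The deposited bounds of that library (431 to 465 FPKM) did not overlap those of the highest (927 to 970 FPKM).

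Levels on the log2(FPKM + 1) scale were then compared between the mice with limma's moderated F-test, fitted to the 13001 genes averaging 1 FPKM or more and adjusted by Benjamini-Hochberg over all of them. The threshold was an adjusted p of 0.05. None of the 9 genes passed (0 of 9, limma), while 25.5% of all genes tested did. Before adjustment, 4 of the 9 had a p under 0.05, namely Col1a2, Ptgds, Col3a1 and Igfbp2, and their adjusted p values were 0.0623, 0.0717, 0.118 and 0.118. For the others the adjusted p was 0.172 for Dcn, 0.213 for Lum, 0.336 for Col1a1, 0.401 for Aldh1a2 and 0.499 for Ogn. A p above the threshold does not show that the mice were alike. The count rests on single libraries: without library 1 of mouse 3 it was 3 (Col1a1, Col1a2 and Dcn, with 29.4% of all genes called), without library 1 of mouse 2 it was 1 (Ptgds, with 29.8% called), and without library 2 of mouse 3 it was 0, with 0.969% called.

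The pairwise differences from the same fit, each adjusted over all genes, picked out 2 of the 9 genes. Col1a2 was lower in mouse 3 than in mouse 1 by a log2 difference of −0.33 (SE 0.0918, limma, adjusted p = 0.0277), where 15.0% of all genes were called lower and 29.7% in either direction. Ptgds was higher in mouse 3 than in mouse 2 by a log2 difference of 0.63 (SE 0.181, limma, adjusted p = 0.0303), where 19.0% were called higher and 32.1% in either direction, but the difference turned to −0.12 after quantile normalization. Each is 1 of 9 genes, which is under the background share, and neither passed the F-test. Near the threshold was Igfbp2 in mouse 3 against mouse 2 (log2 difference 0.39, SE 0.132, adjusted p = 0.0506). Igfbp2 passed with a trend with GC content removed (limma, adjusted p = 0.0427), but not with a trend with transcript length removed (0.689). Col3a1 in mouse 3 against mouse 1 was also near it (log2 difference −0.29, SE 0.0970, adjusted p = 0.0536). With 0.1 in place of 1 added to FPKM, Col3a1 passed (−0.49, limma, adjusted p = 0.0323). It did not pass with the length trend removed (0.336). Adding 1 makes differences smaller for genes near 1 FPKM. Between mice 1 and 2 the adjusted p was 1.000 for every one of the 9, and 0.00769% of all genes differed there, which is 1 gene.

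Each call ended without certain libraries. With 1 library left out, Col1a2 was still called in 4 of 8 fits and Ptgds in 6 of 8. Col1a2 in mouse 3 against mouse 1 had an adjusted p of 0.142 without library 2 of mouse 3, and of 0.0822, 0.0806 and 0.0664 without library 1, 2 or 3 of mouse 1. Without library 1 or 2 of mouse 3, which leaves that mouse 1 library, the Ptgds call against mouse 2 ended, at log2 differences of 0.67 and 0.59. Without library 1 of mouse 2 the Ptgds difference was 0.42. That library had the fewest gigabases on transcripts (1.31) and the highest rho with transcript length (0.502). A link between these values and the Ptgds level was not tested.

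**Figure D3:**
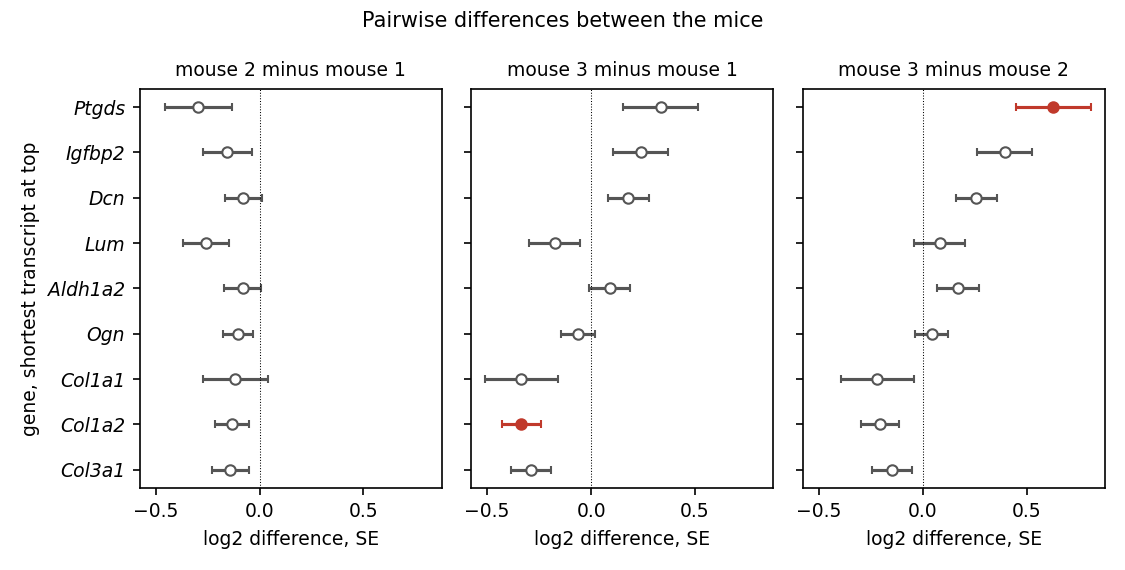
Log2 differences between pairs of mice for the 9 genes (horizontal axes, log2(FPKM + 1), bars are SE), ordered from the shortest transcript at the top to the longest. Filled points passed an adjusted p of 0.05: Ptgds in mouse 3 minus mouse 2 (0.63, but −0.12 after quantile normalization) and Col1a2 in mouse 3 minus mouse 1 (−0.33).

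Without a test, the separation of the libraries was counted too. In 2 of the 9 genes, Igfbp2 and Ptgds, both libraries of mouse 3 lay above all others, where 26.5% of all genes did. In 2 genes, Col1a2 and Col3a1, both lay below all others, where 21.7% did. Mouse 1 stood above all others in 1 gene, Col1a2, against 4.29% of all genes. On the mean of mice 1 and 2, mouse 3 was higher in 4 of the 9 genes and lower in 5, and 52.2% of all genes were higher.

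The size of these differences went with transcript length. Among 2411 genes with a transcript below 1500 nucleotides, the median log2 difference of mouse 3 from the mean of mice 1 and 2 was 0.43, and Igfbp2 (0.32) and Ptgds (0.48) belong there. For 6792 genes from 1500 to 4000 nucleotides the median was 0.03, and the members were Dcn (0.22), Aldh1a2 (0.13), Ogn (−0.01) and Lum (−0.05). For 3798 genes of 4000 nucleotides or longer the median was −0.18, beside Col1a1 (−0.28), Col1a2 (−0.27) and Col3a1 (−0.22). After the trend with length was removed in every library the adjusted F-test p of the 9 ran from 0.203 to 0.842, with 20.3% of all genes called. The difference of Ptgds from mouse 2 was then 0.03 (adjusted p = 0.842) and Col1a2 had an adjusted p of 0.101 in mouse 3 against mouse 1, so both pairwise calls ended. Scaling mattered as well: quantile normalization turned the Ptgds difference to −0.26 and that of Ogn to 0.0051, and with TPM, which moved the median of all genes to −0.24, Dcn turned to −0.07 and Aldh1a2 to −0.12.

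**Figure D4:**
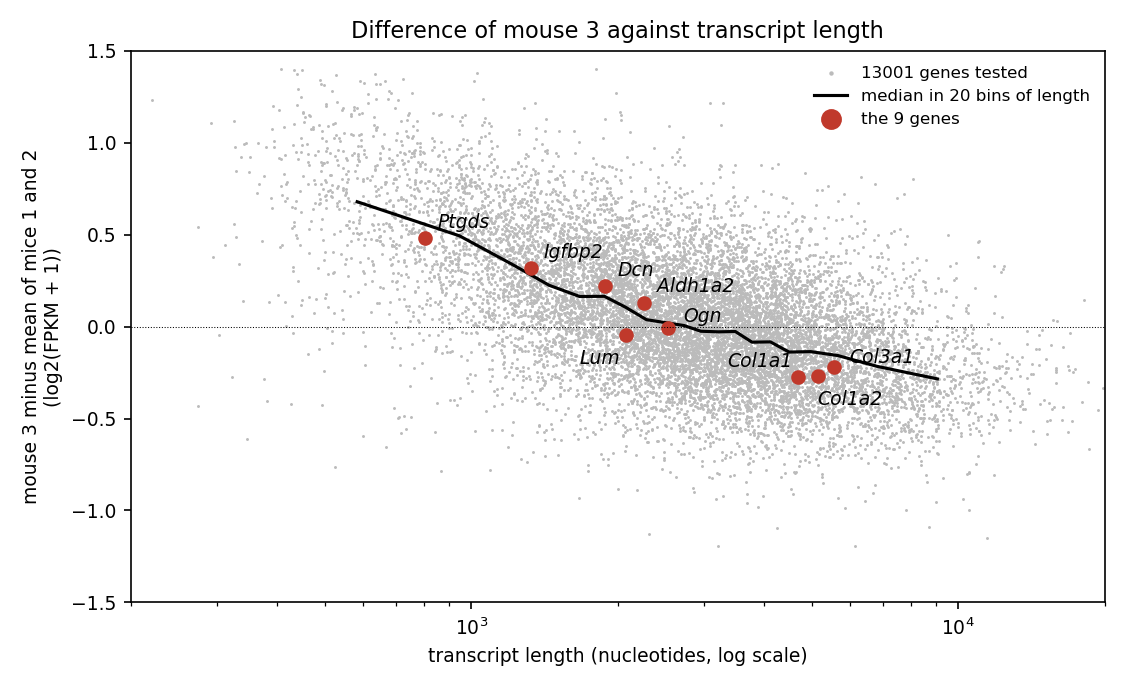
Log2 difference of mouse 3 from the mean of mice 1 and 2 (vertical axis) against transcript length in nucleotides (log scale) for 13001 genes, with the median in bins of length as a line and the 9 genes in red; 80 genes lie outside the axes. The 9 genes run from 0.48 for Ptgds (−0.26 after quantile normalization) to −0.28 for Col1a1 (0.04 without library 2 of mouse 3). Dcn (0.22) stands above the median of 0.03 for genes of 1500 to 4000 nucleotides.

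The other genes of these pathways were read from lists beside the 9, and each count below stands against 25.5% of all genes called, 14.1% called and highest in mouse 3 and 11.3% called and lowest there. Alternatives were read for 34 called genes of the lists, and not for Nov, which was called as well. Of these 34, 20 were still called with TPM, 29 after quantile normalization and 25 with the length trend removed. Among them, the calls that ended with the length trend removed were those of Mgp, Ppib, Rdh5, Rdh10, Igfbp6, Cbr1, Hpgd, Ly6c1 and Opalin. The FPKM total of a library was 295541 to 345572 in mice 1 and 2 and 384885 to 409889 in mouse 3, so sums over a list are given in FPKM and as TPM, in which every library has the same total.

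Of 28 leptomeningeal and perivascular fibroblast markers, 25 were tested and 3 differed between the mice (limma F-test): Mgp and Gjb6 were highest in mouse 3 and Nov was lowest there. Mgp (matrix Gla protein, an inhibitor of calcification) read 23.2 to 34.1 FPKM in mice 1 and 2 and 52.4 to 53.2 FPKM in mouse 3 (adjusted p = 0.00962), a log2 difference of 0.80 that was 0.13 with the length trend removed (adjusted p = 0.484). Nov (a secreted matricellular protein) read 33.4 to 36.2 FPKM against 27.3 to 27.7 FPKM (adjusted p = 0.0217). Whether the Nov call holds with TPM, quantile normalization or the length trend removed was not tested. Gjb6, a gap junction gene that astrocytes also use, had an adjusted p of 0.0202 (0.0634 with TPM). Vim, at 32.6 FPKM, was not called (adjusted p = 0.145). The median log2 difference of mouse 3 was 0.04 for the list and 0.02 for all genes, and the summed level was 184 to 225 FPKM in mice 1 and 2 and 254 to 257 FPKM in mouse 3, which is 623 to 691 TPM and 620.3 to 667 TPM and so overlaps. No marker of the list was at 0 in every library, and 3 lay under 1 FPKM.

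Of 26 other collagen chains and collagen-processing genes, 18 were tested and 6 differed, 4 of them highest and 2 lowest in mouse 3. Sparc, a collagen-binding glycoprotein, read 152 to 171 FPKM in mice 1 and 2 and 285 to 335 FPKM in mouse 3 (adjusted p = 0.00510). P4hb, Ppib and Serpinh1, which act in the folding and modification of procollagen, were also highest in mouse 3 (adjusted p = 0.0103, 0.0146 and 0.0269). Ppib went from a log2 difference of 0.53 to 0.07 with the length trend removed (adjusted p = 0.585), and with TPM Ppib and Serpinh1 were not called (adjusted p = 0.185 and 0.342). Col6a1, a chain of microfibrillar collagen VI, read 8.20 to 9.60 FPKM in mice 1 and 2 against 3.63 to 4.85 FPKM in mouse 3 (adjusted p = 0.00510), and Col5a1 was also lowest there (adjusted p = 0.00785). The median log2 difference of the list was −0.10. Of 13 other small leucine-rich proteoglycans, 5 were tested and 0 differed. Bgn stood at 7.37 FPKM, Prelp at 6.12 FPKM and Fmod at 5.78 FPKM.

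Among 19 other retinoid genes, 16 were tested and 4 differed, 3 of them highest in mouse 3, Aldh1a1 and Rdh5 included, and Rdh10 was neither highest nor lowest there. This share of the list is close to that over all genes. Both libraries of Rdh5 in mouse 3 (2.93 and 3.07 FPKM) lay within the range of mouse 1 (2.41 to 3.41 FPKM), and its log2 difference of 0.22 became 0.0035 with TPM and −0.10 with the length trend removed. Aldh1a1, another retinal dehydrogenase, read 34.5 to 41.0 FPKM in mice 1 and 2 and 76.2 to 99.3 FPKM in mouse 3 (adjusted p = 0.00510). The ratio of Aldh1a2 to Aldh1a1 was 0.0847 to 0.105 in mice 1 and 2 and 0.0528 and 0.0403 in mouse 3, so mouse 3 stood apart in this ratio and mice 1 and 2 overlapped. Rxrb and Dhrs3 (7.47 FPKM) were not called. Of 16 other insulin-like growth factor genes, 10 were tested and 1 differed, Igfbp6, highest in mouse 3 (adjusted p = 0.0317), with a log2 difference of 0.39 that was 0.08 with the length trend removed and 0.12 with TPM (adjusted p = 0.420 and 0.181), while Igfbp5 (35.2 FPKM), Igf2 (23.4 FPKM) and Igfbp4 (21.2 FPKM) were not called. Igfbp2 stood to Igfbp5 as 0.476 to 0.954 over the libraries. Of 21 other prostaglandin genes, 10 were tested and 2 differed, Cbr1 (adjusted p = 0.0347) and Hpgd, which inactivates prostaglandins (adjusted p = 0.0272), both highest in mouse 3 and neither called with TPM (adjusted p = 0.170 and 0.112), whereas Ptges3 (66.5 FPKM) and Ptges2 (11.3 FPKM) were not called.

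Because Ptgds and Igfbp2 are also expressed in other cells, markers of those cells were read in the same way. Of 10 oligodendrocyte markers 5 differed, Mbp, Mobp, Opalin and Mal included, all highest in mouse 3 although 1 of the 5 turned lower there after quantile normalization, and the list summed to 2334 to 2597 FPKM in mice 1 and 2 and to 4333 to 5282 FPKM in mouse 3 (7469 to 7999 TPM and 11257 to 12886 TPM), with none at 0 in every library. Opalin went from a log2 difference of 0.69 to 0.19 with the length trend removed (adjusted p = 0.204), and Mal was not called with TPM (adjusted p = 0.135). Mbp read 1253 to 1365 FPKM against 2836 to 3495 FPKM (adjusted p = 0.00393), while Cnp had an adjusted p of 0.629. Choroid plexus markers differed in 1 of 8, Kl, which was lower in mouse 3 (adjusted p = 0.0206). Ttr, the leading transcript of this epithelium, stood at 472 ± 52.3 FPKM (adjusted p = 0.309), and the list summed to 328 to 558 FPKM in mice 1 and 2 and to 439 to 571 FPKM in mouse 3 (1109 to 1714 TPM and 1141 to 1394 TPM). Ptgds was 1.39 to 1.53 times Ttr in mice 1 and 2 and 2.14 and 1.72 times Ttr in mouse 3. The part of these cell types in the Ptgds difference was not tested.

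For cells that border the fibroblasts, 1 of 9 tested mural markers (Rgs5, adjusted p = 0.00699, highest in mouse 3; Vtn at 35.7 FPKM and Acta2 at 8.86 FPKM not called) and 1 of 9 endothelial markers (Ly6c1, adjusted p = 0.0206, also highest there; Slc2a1 and Slco1a4 not called) differed. The mural list summed to 73.0 to 88.7 FPKM in mice 1 and 2 and 104 to 121 FPKM in mouse 3, but to 247 to 272 TPM and 269.7 to 296 TPM, which overlap. The endothelial list summed to 87.0 to 118 FPKM and 147 to 156 FPKM, or 294 to 363 TPM and 381.8 TPM in both libraries of mouse 3. Ly6c1 went from a log2 difference of 0.85 to 0.33 with the length trend removed (adjusted p = 0.0874). Of 8 arachnoid barrier markers 3 were tested and 2 differed, Abcg2 upward (adjusted p = 0.0404, but 0.117 with TPM) and Klf5 downward (adjusted p = 0.0157) in mouse 3; Krt18 was not called. Of 7 border macrophage markers 2 were tested and 0 differed, Pf4 at 1.31 FPKM and Mrc1 at 1.16 FPKM. Blood markers (7 listed, 5 tested) differed in 1, Hbb-bt (adjusted p = 0.0107, highest in mouse 3), with sums of 530 to 660 FPKM in mice 1 and 2 and 804 to 898 FPKM in mouse 3 (1794 to 2032 TPM and 2090.1 to 2190.4 TPM), and Hba-a1 at 464 FPKM was not called. Globin genes have near-identical copies, so the division of reads among them is uncertain. Of 12 bone and muscle markers 9 were under 1 FPKM and 1 of 3 tested differed, Dmp1 (adjusted p = 0.0340, but 0.0942 with TPM), with Acta1 reaching 12.6 FPKM in library 1 of mouse 2. Neuron and astrocyte markers differed in 8 of 10: Gfap, Gjb6, Aldh1l1, Aqp4 and Slc1a2 were highest in mouse 3 (Gfap adjusted p = 0.00510, Slc1a2 0.0168, with a difference of −0.05 after quantile normalization) and Syt1, Gad1 and Rbfox3 were lowest there (Syt1 adjusted p = 0.00629), with Gjb6, Aldh1l1, Aqp4 and Slc1a2 not called with TPM, while Snap25 and Slc17a7 were not called. Beside these, the 9 genes had 0 of 9 called and a median range of mouse means of 0.29 on the log2 scale, against 0.28 over all genes.

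**Figure D5:**
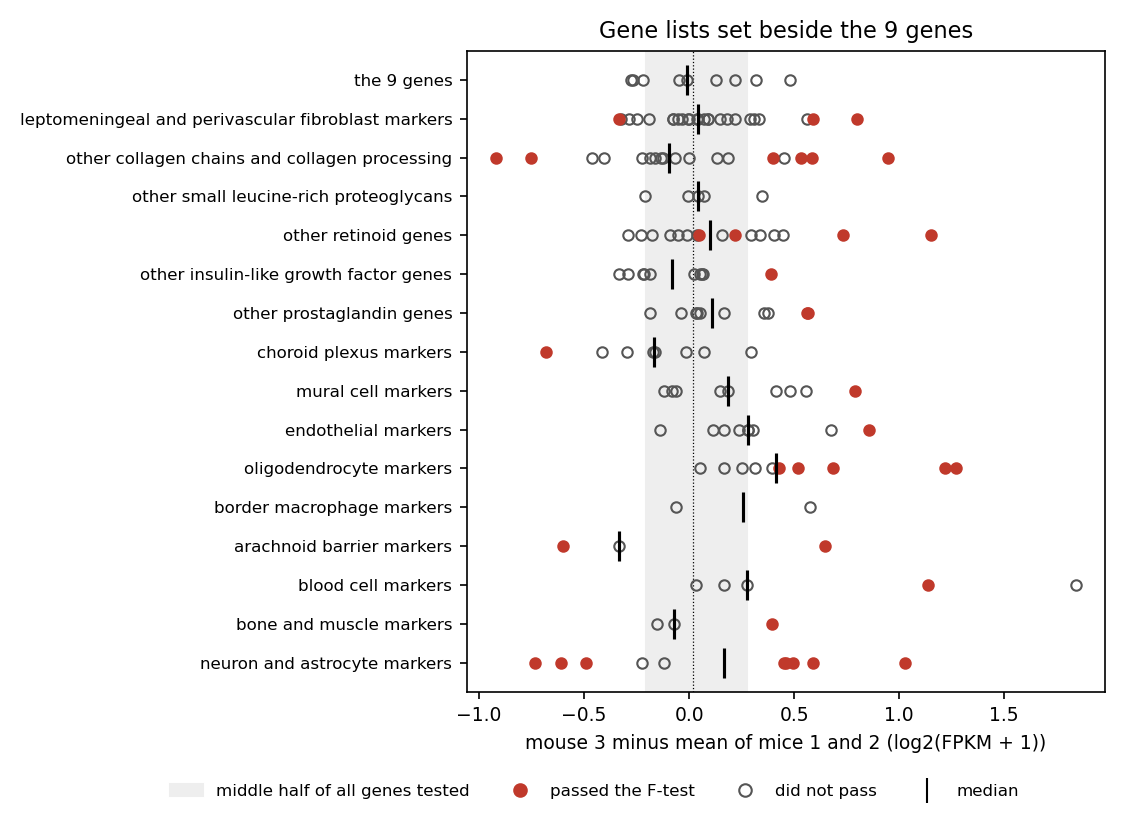
Log2 difference of mouse 3 from the mean of mice 1 and 2 for each tested gene of the lists (horizontal axis), with filled points for genes that passed the F-test, a bar for each list's median and a grey band for the middle of all genes tested. None of the 9 genes is filled, whereas Sparc, Col6a1, Mbp and Gfap lie beyond 0.9 in either direction.

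Genes whose profile over the 8 libraries was most like that of each of the 9 were found by the root mean square difference of log2 deviations from the gene's own mean. For Col1a1 (own deviation 0.223) these included Ncapd2 (0.0309) and Slc12a9 (0.0388). Those of Col1a2 (0.145) were Rbm33, Dmtn and Zkscan8 (0.0275 to 0.0348), and of Col3a1 (0.135) Zswim5, Larp6 and Kcnv1 (0.0384 to 0.0516). For Dcn (0.128) they were Arpp19, Atl2 and Ttc33, for Lum (0.160) Fbrsl1, 5031425E22Rik and Ncf1, and for Ogn (0.0624) Mme, Tra2a and Inpp5b. Aldh1a2 (0.102) had Vwa9, Sec22b and Adck5, Igfbp2 (0.198) had Cd81, Park7 and Aagab, and Ptgds (0.308) had Uchl1, Trnp1 and Cnih2. None of the 9 had another of the 9 among its 3 nearest. With all tested genes ranked, a place among the 3 nearest would be rare for any given gene, so this absence carries little information. The closest was Ogn for Lum, at place 180 of the tested genes, and for the collagens the nearest of the 9 came at places 663 to 1329. The places expected by chance were not computed, so whether the 9 genes vary together was not tested.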

How the data were processed

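Bulk RNA-seq of whole brain was taken from 3 mice (3, 3 and 2 libraries). Per the labels, the RNAqueous Micro kit served for RNA and the Kapa mRNA HyperPrep kit for libraries. The authors estimated FPKM with confidence bounds for 34535 RefSeq transcripts per library. The submitters' processing notes name TopHat, Cufflinks and the build mm10, and versions, strand setting and read length are not given in the sources used here. The deposited coverage is the estimated read depth per base, and the deposited length is that of the transcript. Starts in the table equal RefSeq starts after adding 1 in 14225 of 23140 genes, and coordinates are given 1-based. FPKM are no counts, so no count test or counting interval was used, and precision is given as SD between mice or spread between libraries.

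Transcript values were summed by gene symbol. log2(FPKM + 1) was fitted with limma 3.58.1 (R 4.3.3) with mouse as the only term, on the 13001 genes whose mean over mice reached 1 FPKM, p-values were adjusted by Benjamini-Hochberg (threshold 0.05), and the pairwise differences came from the same fit. Python 3.11.15, pandas 2.3.3, numpy 2.4.6 and matplotlib 3.10.9 were used for the rest. The fit was tested on simulated data. Alternatives were another pseudocount (0.1), other minimum levels, TPM, quantile normalization, removal of a loess trend with length or GC content (span 0.3), the highest transcript only, a variance trend, the library number as a block and each library left out. The GC alternative, the list sums as TPM and the alternatives for list genes were added after the data were seen.

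Genes named are the 9 genes, the 3 highest and the 2 most variable called genes of each list, and the 3 nearest profiles of each gene. Further called genes of a list, and ratios, were chosen after their values were seen. The 9 genes and the lists were chosen with earlier results of these data known. The lists were fibroblast, choroid plexus, mural, endothelial, oligodendrocyte, border macrophage, arachnoid barrier, blood, bone and muscle, and neuron and astrocyte markers, and collagen, proteoglycan, retinoid, insulin-like growth factor and prostaglandin genes. RefSeq promoters (GRCm38.p6) were matched by symbol for 6 of the 9 genes. Some genes that the rule would name are not reported here.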

Additional observations from a re-analysis of the deposited data

Results flagged for a closer look

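Of 18 measures (the levels of the 9 genes, 8 ratios and the share of a Dcn transcript) checked over the 8 libraries, 2 had a library whose gap to the nearest other exceeded the limit of Dixon's test for 8 values. Chance sets about 1 in 20 such groups apart, and libraries of a mouse are not independent. Dcn read 18.4 FPKM in library 2 of mouse 3, with the next library at 15.1 FPKM and a gap of 0.666 of the range. The ratio of Ptgds to Ttr was 2.14 in library 1 of mouse 3, with the next at 1.72 and a gap of 0.555 of the range. The cause was not tested in either case.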

How the results depend on the processing

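Of 13001 genes, 3310 differed between the mice (limma, adjusted p under 0.05). The count was 5191 with TPM, 2171 with the highest transcript of each gene, and 126 to 3873 when 1 library was left out. The lowest was without library 2 of mouse 3, and it was 1909, 1785 and 1671 without library 1, 2 or 3 of mouse 1. Of the calls, 55.4% were higher in mouse 3 (12.6% with TPM, which shifts the median of all genes by −0.24 on the log2 scale, and 68.3% without library 2 of mouse 3).

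Among the 9 genes 0 were called. With TPM 2 were (Col1a2, adjusted p = 0.0172, and Col3a1, adjusted p = 0.0251), beside 35.1% of all genes, and with the GC trend removed 1 was (Ptgds, adjusted p = 0.0336), beside 33.9%. Leaving out 1 library gave 0 to 3. Without 1 of its libraries mouse 3 has a single library, which is then assumed to vary like those of the other mice. With the replicate block 1 was called (Ptgds, adjusted p = 0.0371), of 2995 genes in all (23.0%), with 68.0% of calls higher in mouse 3. Deviations of libraries with the same number correlated between 0.00276 and 0.107, and those with different numbers between −0.135 and 0.0645. The 2 deviations of mouse 3 mirror each other, so correlations with that mouse cannot decide whether the numbers pair the libraries. Between mice 1 and 2 alone both ranges were the same, and they overlap, so they do not settle it either. The main fit did not use the numbers.

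Of the differences of mouse 3 from the mean of mice 1 and 2, these changed sign. Under TPM, Dcn went to −0.065 and Aldh1a2 to −0.12. Under quantile normalization, Ptgds went to −0.26 (−0.12 against mouse 2 alone) and Ogn to 0.0051, and with the length trend removed Ptgds went to −0.0636. With 1 library left out, Col1a1 ran from −0.592 to 0.0395, Lum from −0.169 to 0.075 (both positive without library 2 of mouse 3) and Ogn from −0.0396 to 0.0202 (0.0059, 0.0057 and 0.02 without library 2 of mouse 1, library 3 of mouse 2 or library 1 of mouse 3). The Ptgds difference from mouse 2 also lost its call with no filter on low levels (adjusted p = 0.0587) and with TPM (0.118).

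As TPM the levels were 7.26 for Col1a1, 14.5 for Col1a2, 3.42 for Col3a1, 43 for Dcn, 4.37 for Lum, 13.1 for Ogn, 10.8 for Aldh1a2, 70.2 for Igfbp2 and 2153 for Ptgds, in units that differ from FPKM by a factor for each library, and the highest Dcn transcript alone gave 11.8 FPKM. Leaving out a library moved every level by less than 1 SD. Causes were not tested. With 1 condition, 3 mice and at most 3 libraries of each, differences are those of these animals and libraries only.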
